A study of Homo sapiens with 11 samples.

Results

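The dystrophin complex spans the surface membrane of muscle cells, and the T-tubules are inward folds of that membrane that carry the action potential to the contractile machinery. The 8 genes described here were chosen by symbol from a table of 19990 genes, and all 8 had a row in it and were tested. They were DMD (dystrophin), DTNA (alpha-dystrobrevin), DAG1 (dystroglycan), SGCA, SGCB and SGCD (the alpha, beta and delta sarcoglycans), CAV3 (caveolin-3) and BIN1 (amphiphysin-2). The cells were cardiomyocytes made at passage 63 from WTC11, a widely used human stem cell line that was reprogrammed from adult cells. Differentiation used CHIR99021, which activates Wnt signalling, and then IWP2, which blocks Wnt secretion. Wells were then kept in B27 medium with insulin, and poly(A) RNA was sequenced at Day 30 (4 wells), Day 60 (3 wells) and Day 113 (4 wells), to follow maturation in long-term culture. All 11 wells carried the same line and treatment and came from one differentiation, so the spread between wells covers neither another differentiation nor another line. Collection day and culture day coincided and cannot be told apart.

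In adult heart, dystrophin binds the actin cytoskeleton inside the cell and the beta part of dystroglycan in the membrane. The alpha part of dystroglycan, once glycosylated, binds laminin outside, and the sarcoglycans stabilise this link. Mutations in several of these genes cause muscular dystrophies and cardiomyopathies. Caveolin-3 shapes caveolae and is found in forming T-tubules, and BIN1 bends the membrane into tubules.

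SGCD and CAV3 rose furthest among the 8 genes and BIN1 had the largest fall, and the sequence just before the start site of each of these is shown here. The windows are RefSeq sequences of GRCh38.p14 that cover the 250 bases upstream of the annotated start, 5′ to 3′ on the gene's strand. Capitals mark matches to the E-box CANNTG, a motif that many muscle and cardiac factors of the basic helix-loop-helix family bind and that reads the same on both strands.
SGCD, chr5:156326914-156327163, plus strand: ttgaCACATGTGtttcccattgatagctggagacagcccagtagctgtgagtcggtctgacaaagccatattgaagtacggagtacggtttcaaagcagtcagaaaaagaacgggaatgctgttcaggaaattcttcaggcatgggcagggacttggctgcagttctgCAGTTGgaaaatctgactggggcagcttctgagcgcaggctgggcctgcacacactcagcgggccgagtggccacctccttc
CAV3, chr3:8733552-8733801, plus strand: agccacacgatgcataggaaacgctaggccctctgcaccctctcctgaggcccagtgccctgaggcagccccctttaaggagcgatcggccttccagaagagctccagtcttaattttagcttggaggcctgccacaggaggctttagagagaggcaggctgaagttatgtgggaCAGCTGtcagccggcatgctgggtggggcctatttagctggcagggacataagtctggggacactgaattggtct
BIN1, chr2:127107155-127107404, minus strand: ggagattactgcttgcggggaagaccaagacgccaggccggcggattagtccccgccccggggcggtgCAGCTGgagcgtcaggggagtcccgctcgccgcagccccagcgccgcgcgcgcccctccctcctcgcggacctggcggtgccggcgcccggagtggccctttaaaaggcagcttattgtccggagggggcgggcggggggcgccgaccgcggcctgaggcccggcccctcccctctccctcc
The SGCD window held 3 matches, of which 2 overlap each other at its far end, and it starts inside the annotated gene span, which begins at an earlier start. One match lay 75 bases before the CAV3 start and 1 lay 182 bases before the BIN1 start. GC content was 53.2% for SGCD, 57.2% for CAV3 and 75.6% for BIN1, and the median of all windows was 58%. Of 35116 promoter windows of this length, 61.8% held at least 1 such match and 10.4% held at least 3, so a single match was common.

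Transcripts of all 10 cardiomyocyte markers checked, among them TNNT2, ACTN2 and MYH7, were present in every well, and their summed level was 31989 to 43842 counts per 1000000 counts (CPM) at Day 30, 39377 to 44755 at Day 60 and 34936 to 40432 at Day 113. Libraries held 24.1 to 34.5 M counts (M, units of 1000000). Markers of other cell types also moved between days. The 8 fibroblast markers summed to 3353 to 7707 CPM at Day 30, 2070 to 3570 at Day 60 and 5431 to 13041 at Day 113. The 7 endothelial markers summed to 54.1 to 78.4, 38.9 to 61.9 and 188 to 762 CPM on the same days, and the 4 smooth muscle markers found in the table to 489 to 736, 619 to 846 and 778 to 1214 CPM. The 6 epithelial markers summed to 2266 to 3575, 1276 to 1463 and 1173 to 1961 CPM, the 4 epicardial ones to 95.6 to 132, 145 to 204 and 184 to 250 CPM, and the 6 neural ones found in the table to at most 51.2 CPM. Of the skeletal muscle markers only MYOD1 and MYOG were in the table, and they summed to at most 1.56 CPM. In bulk RNA, fewer cells of a type and less RNA per cell cannot be told apart.

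One library stood apart. In Day 113 replicate 2, transcripts of at least 8 kb (1032 genes) had a median deviation of -0.28 from their Day 113 mean on the log2 CPM scale, and transcripts of at most 2 kb (1731 genes) had +0.28. The long-minus-short difference was -0.56 there, 0.10 to 0.30 in the other Day 113 wells and -0.10 to 0.08 in the wells of the other days. The Day 113 mean includes replicate 2, so the values of the other Day 113 wells depend in part on it. Of the 8 genes, DMD has the longest annotated coding transcript and SGCA and CAV3 the shortest, and DMD was lowest and SGCA and CAV3 highest in that library. Changes and ratios that use Day 113 are given below with and without it.

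Between Day 30 and Day 60, 4 of the 8 genes rose (DTNA, SGCA, SGCD and CAV3) and 1 fell (BIN1), by edgeR's quasi-likelihood test at a Benjamini-Hochberg adjusted p of 0.05 over all genes. Of all 19990 genes, 10.3% changed in this comparison, 4.39% upward and 5.91% downward. The wells of both days did not overlap for 6 of the 8 genes, against 24.8% of all genes. From Day 60 to Day 113, SGCD rose and SGCB fell, against 24% of all genes changed (12.9% upward and 11.1% downward), and 3 of the 8 genes did not overlap, against 30.6% of all genes. Over the whole span from Day 30 to Day 113, SGCA, SGCD and CAV3 rose and SGCB and BIN1 fell, against 34.5% of all genes changed (17.3% upward and 17.2% downward), and 4 of the 8 genes did not overlap, against 35.1%. The median log2 change of the 8 genes was 0.41, 0.13 and 0.10 in these comparisons, beside -0.01, 0.00 and -0.02 for all genes. The medians of the comparisons with Day 113 were 0.08 and 0.21 without its replicate 2. Some change over the 3 days was called for 6 of the 8 genes, all but DMD and DAG1, against 37.1% of all genes. Without Day 113 replicate 2, 6, 2 and 4 of the 8 genes were called in the 3 pairs of days. In that fit 13.2%, 23.9% and 34% of all genes were called. DAG1 was added before Day 60 and BIN1 was lost over the whole span. The count of 5 before Day 60 was 3 without any one of Day 30 replicates 2 and 3 and Day 60 replicates 1 and 3.

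**Figure D1:**
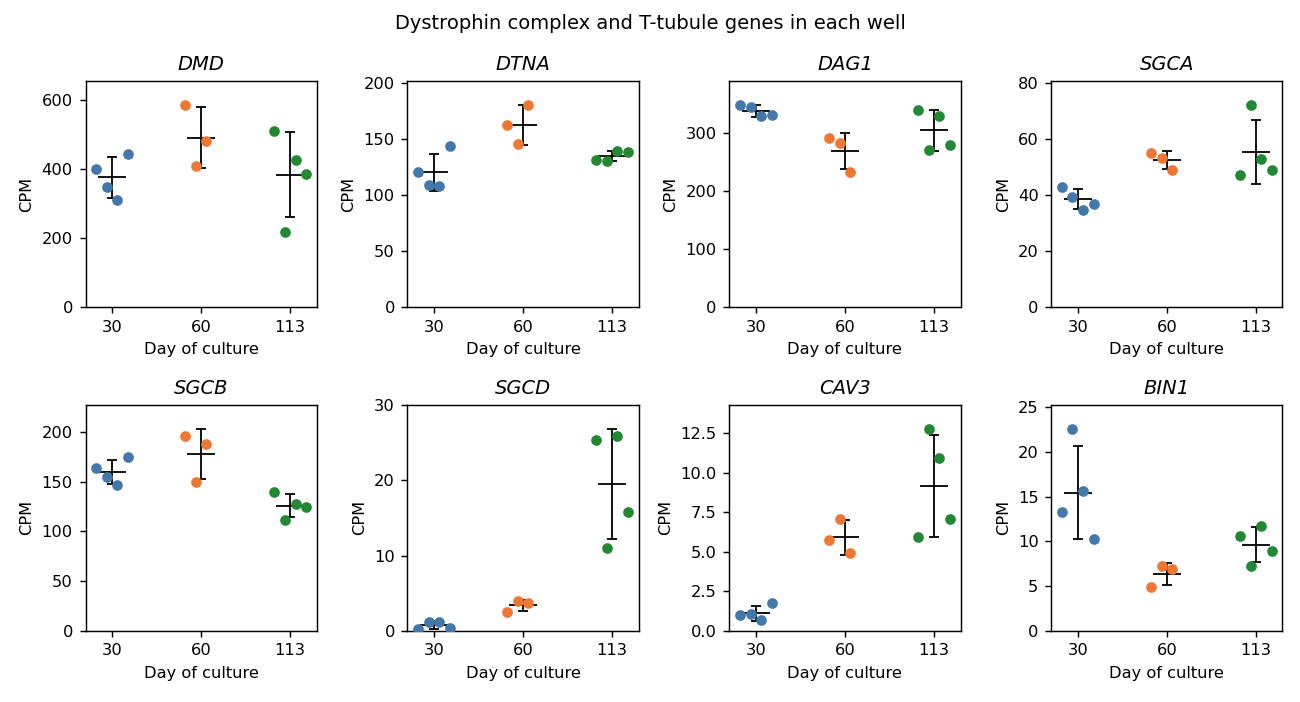
Level of each of the 8 genes in each well, in CPM on a linear axis from 0, by day of culture (4, 3 and 4 wells). Points are wells, and the horizontal line and bar give the mean and SD. SGCD and CAV3 lie near 0 in all 4 Day 30 wells and higher in every later well, while DMD overlaps between all days.

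Dystrophin itself, DMD (chromosome X, 31119222 to 33339388, minus strand), was abundant at every age. Its values were 402, 348, 310 and 445 CPM in the Day 30 wells, 586, 408 and 481 CPM at Day 60, and 510, 218, 426 and 385 CPM at Day 113. The days overlapped throughout, and the lowest value of all was that of Day 113 replicate 2. The log2 change was 0.39 ± 0.21 (SE) to Day 60 (adjusted p 0.31) and 0.03 ± 0.20 from Day 30 to Day 113 (adjusted p 0.92, edgeR). Without Day 113 replicate 2 the latter was 0.23 (adjusted p 0.24). From Day 60 to Day 113 it was -0.35 ± 0.21 (adjusted p 0.25), or -0.16 without that library.

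Utrophin (UTRN) is the widely expressed relative of dystrophin and can take its place at the membrane. UTRN read 218 ± 4.30 CPM (SD, n = 4) at Day 30, 197 ± 16.4 (n = 3) at Day 60 and 166 ± 42.5 (n = 4) at Day 113. It fell by 0.39 on the log2 scale from Day 30 to Day 113 at an edgeR adjusted p of 0.0495, and 8 of the 11 fits that leave out a single well lost that call, at 0.058 to 0.10. The change was -0.23 without Day 113 replicate 2 (adjusted p 0.047). Within each library, the log2 ratio of DMD to UTRN counts was 0.84, 0.70, 0.51 and 1.04 at Day 30, 1.54, 1.19 and 1.19 at Day 60, and 1.37, 1.05, 1.13 and 1.19 at Day 113. Every later well lay above every Day 30 well. The mean difference between Day 113 and Day 30 was 0.42 (two-sided exact permutation p 0.0286, the smallest that 4 wells against 4 allow), and after adjustment over the 12 ratio tests it did not pass (0.229). With Day 113 replicate 2 left out it was 0.46 (adjusted 0.17).

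Alpha-dystrobrevin, DTNA (chromosome 18, 34493312 to 34891844, plus strand), is a cytoplasmic partner that binds dystrophin and the syntrophins. Its 4 Day 30 values were 120, 109, 108 and 144 CPM, its Day 60 values 163, 145 and 180 CPM, and its Day 113 values 132, 130, 139.5 and 138.8 CPM. Every Day 60 well was above every well of the other days, though the gap to Day 30 replicate 4 was small. DTNA rose by 0.44 ± 0.11 on the log2 scale to Day 60 (1.35-fold, edgeR adjusted p 0.018). That call was lost, at adjusted p 0.052 to 0.091, without any one of Day 30 replicates 2 and 3 and Day 60 replicates 1 and 3. From Day 60 to Day 113 the log2 change was -0.27 ± 0.11 (adjusted p 0.091), and from Day 30 to Day 113 it was 0.17 ± 0.10 (adjusted p 0.23). With Day 113 replicate 2 left out these were -0.25 (adjusted p 0.12) and 0.18 (adjusted p 0.20). The log2 ratio to its relative DTNB averaged 3.39 ± 0.29 (SD, n = 4), 3.75 ± 0.26 (n = 3) and 3.75 ± 0.20 (n = 4) on the 3 days, with an adjusted exact permutation p of 0.274 between Day 30 and Day 113, or 0.17 without Day 113 replicate 2.

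Dystroglycan, DAG1 (chromosome 3, 49468948 to 49535615, plus strand), is cut after translation into the laminin-binding and the membrane-spanning part. It varied little at Day 30, with 348, 345, 329 and 330 CPM, and read 291, 283 and 233 CPM at Day 60 and 339, 270.2, 330.1 and 279.8 CPM at Day 113. All Day 60 wells were below all Day 30 wells. The log2 change to Day 60 was -0.33 ± 0.11 (edgeR adjusted p 0.068), and it passed the threshold with DESeq2 (adjusted p 0.036). From Day 30 to Day 113 the change was -0.15 ± 0.10 (adjusted p 0.28), or -0.09 without Day 113 replicate 2. Between Day 60 and Day 113 it was 0.18 (adjusted p 0.26), or 0.23 without that library (adjusted p 0.11).

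The sarcoglycans moved apart from one another. SGCA (chromosome 17, 50166005 to 50175928, plus strand), the form restricted to striated muscle, had 43.0, 39.4, 34.8 and 37.0 CPM at Day 30, 55.2, 53.3 and 49.0 at Day 60, and 47.2, 72.1, 52.8 and 49.0 at Day 113. All later wells were above all Day 30 wells. SGCA rose by 0.52 ± 0.13 on the log2 scale from Day 30 to Day 113 (1.43-fold, edgeR adjusted p 0.0047), and by 0.37 (adjusted p 0.0081) without Day 113 replicate 2, its highest well. The rise to Day 60, 0.45 ± 0.14, had an adjusted p of 0.049 and lost the call, at 0.054 to 0.14, in 8 of the 11 fits that leave out a single well. Between Day 60 and Day 113 the log2 change was 0.07 ± 0.14 (adjusted p 0.75), or -0.08 without Day 113 replicate 2 (adjusted p 0.64).

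SGCB (chromosome 4, 52020706 to 52038299, minus strand), a core subunit of the complex, went the other way. Its Day 30 wells held 164, 155, 146 and 175 CPM, its Day 60 wells 196, 149.5 and 188 CPM, and its Day 113 wells 139.6, 111, 128 and 124 CPM. All 4 Day 113 wells were below every earlier well. SGCB fell by 0.50 ± 0.11 on the log2 scale from Day 60 to Day 113 (edgeR adjusted p 0.0044), and by 0.45 without Day 113 replicate 2 (adjusted p 0.0075). Against Day 30 the fall was 0.35 ± 0.10 (adjusted p 0.017), 0.29 without that library (adjusted p 0.036), and it lost the call without Day 30 replicate 4 (adjusted p 0.055).

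SGCD (chromosome 5, 155727832 to 156767788, plus strand) rose in both intervals. It was at 0.267, 1.20, 1.15 and 0.309 CPM at Day 30, from 7, 36, 35 and 9 counts. At Day 60 it was at 2.52, 3.94 and 3.72 CPM (79, 107 and 118 counts), and at Day 113 at 25.4, 10.99, 25.9 and 15.8 CPM (880, 293, 907 and 395 counts). The 3 days did not overlap, and the lowest Day 113 value was that of replicate 2. The log2 change was 2.19 ± 0.44 to Day 60 (4.56-fold, edgeR adjusted p 0.0044) and 2.53 ± 0.42 from there to Day 113 (5.76-fold, adjusted p 5.1e-04), the latter 2.72 without Day 113 replicate 2. Over the whole span it was 4.71 ± 0.43 (26.2-fold, adjusted p 7.9e-07), and 4.91 without Day 113 replicate 2. With limma-voom the rise to Day 60 had an adjusted p of 0.090. A rise called in both intervals was found for 1.02% of all genes.

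The SGCD values ran beside those of non-cardiomyocyte markers in some wells. At Day 30 its higher wells, replicates 2 and 3, also had the higher fibroblast marker sums (7707 and 6796 CPM against 4509 and 3353). At Day 113 the wells with the highest SGCD, replicates 1 and 3, had sums of 13041 and 11269 CPM against 6758 and 5431. Between the days this order did not hold, since the Day 60 wells had sums of 3570, 3262 and 2070 CPM, with SGCD above every Day 30 well. That sum is carried by COL1A1, COL1A2 and COL3A1, each lower on average at Day 60 than at Day 30. Of the less abundant fibroblast markers, POSTN averaged 56.0, 84.0 and 195 CPM on the 3 days and DCN 24.6, 34.2 and 59.9 CPM. TCF21 averaged 0.66, 1.18 and 5.11 CPM, and all of these had the day order of SGCD. PDGFRA and LUM, the others on that list, did not have it. PDGFRA fell from 144 to 96.5 and 32.3 CPM, and LUM averaged 50.2, 16.8 and 20.8 CPM. The medians of the epicardial sums had that order too (115, 152 and 205 CPM), though the Day 60 and Day 113 wells overlapped. TBX18 carried that sum, at 98.3, 138 and 158 CPM on average, and WT1 and UPK3B also averaged more on each later day. ALDH1A2, the other epicardial marker, averaged less on each later day. The medians of the smooth muscle sums rose as well (631, 659 and 1034 CPM), with neighbouring days overlapping, though TAGLN and SMTN did not have this order. The part of other cells in the SGCD values was not tested.

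**Figure D2:**
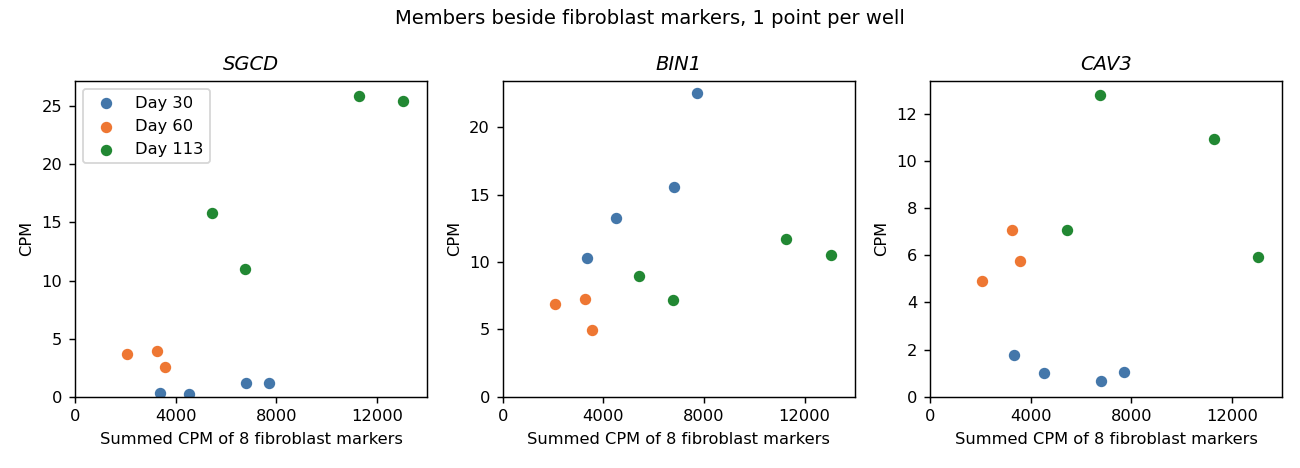
Level of SGCD, BIN1 and CAV3 in CPM (vertical axis) against the summed CPM of 8 fibroblast markers (horizontal axis), with 1 point per well coloured by day. Day 60 wells have the lowest marker sums as a group (2070 to 3570), with SGCD and CAV3 above Day 30 and BIN1 below it.

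Set side by side per transcript length (CPM per kb of the longest annotated coding transcript), the sarcoglycans shifted in proportion. Of the summed level of SGCA, SGCB, SGCD and SGCE, SGCB took 47.7% ± 1.94 (SD, n = 4) at Day 30, 43.0% ± 3.07 (n = 3) at Day 60 and 32.3% ± 4.68 (n = 4) at Day 113. The SGCA share was 35.5% ± 2.22, 39.5% ± 3.74 and 43.3% ± 5.82 on these days, with the highest well, 51.6%, in Day 113 replicate 2. SGCD took 0.102% ± 0.0738, 0.379% ± 0.108 and 2.28% ± 0.884. SGCE, the widely expressed relative of SGCA, rose by 0.65 ± 0.10 on the log2 scale from Day 30 to Day 113 (edgeR adjusted p 1.3e-04), or by 0.61 without Day 113 replicate 2 (adjusted p 2.8e-04), and its share was 16.6% ± 1.60, 17.1% ± 1.40 and 22.1% ± 1.07. Without that library the Day 113 shares were 34.5% ± 2.01 (SD, n = 3) for SGCB, 40.5% ± 2.24 for SGCA, 2.66% ± 0.566 for SGCD and 22.3% ± 1.23 for SGCE. The log2 ratio of SGCA to SGCE averaged -0.18 ± 0.20 (SD, n = 4), -0.07 ± 0.23 (n = 3) and -0.32 ± 0.23 (n = 4), and no pair of days passed (exact permutation p of at least 0.2). The differences of Day 113 from Day 30 and Day 60 were -0.24 and -0.35 with that library left out.

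**Figure D3:**
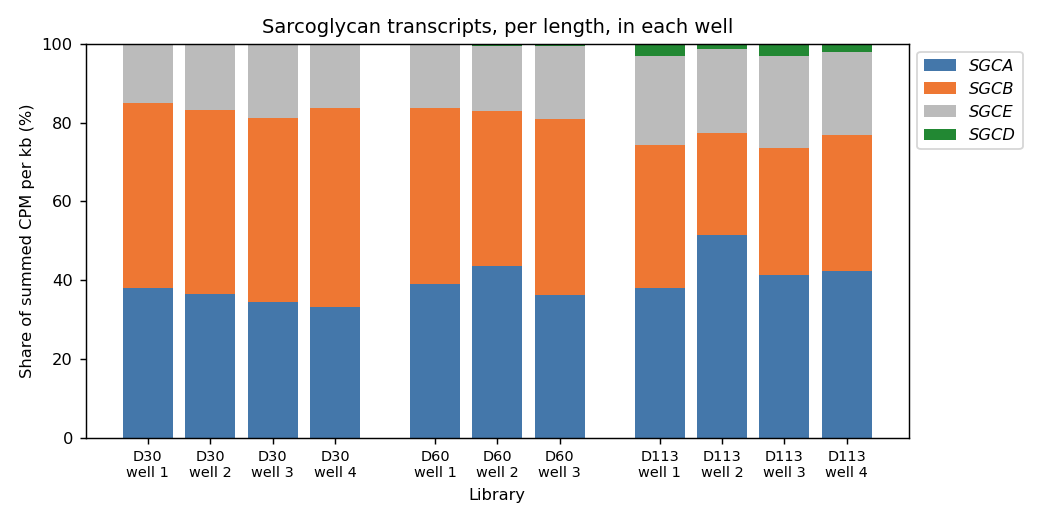
Share of each of 4 sarcoglycans in their summed level per transcript length (percent, CPM per kb), with 1 bar per well grouped by day. The SGCB share is smaller in the Day 113 wells than in all others, and a visible SGCD share is seen at Day 113.

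Caveolin-3, CAV3 (chromosome 3, 8733802 to 8746758, plus strand), is the muscle form of caveolin and binds the dystroglycan complex. Its Day 30 wells held 0.993, 1.03, 0.658 and 1.79 CPM, its Day 60 wells 5.74, 7.08 and 4.92 CPM, and its Day 113 wells 5.92, 12.8, 10.9 and 7.06 CPM. Every later well was above every Day 30 well, and the 2 later days overlapped. CAV3 rose by 2.40 ± 0.34 on the log2 scale to Day 60 (5.27-fold, edgeR adjusted p 3.8e-04) and by 3.03 ± 0.33 to Day 113 (8.18-fold, adjusted p 4.8e-06). Without Day 113 replicate 2, its highest well, the latter was 2.83 (adjusted p 1.7e-05). Between Day 60 and Day 113 the change was 0.63 ± 0.33 (adjusted p 0.18), or 0.43 without that library. Of all genes, 2.93% rose from Day 30 to Day 113 by a log2 change of at least 2, and CAV3 and SGCD were among them.

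Caveolin-1 (CAV1), the form of most other cells, was far more abundant, at 53.4 CPM at Day 30, 131 at Day 60 and 215 at Day 113 on average. CAV1 rose by 2.01 ± 0.12 on the log2 scale over the whole span (edgeR adjusted p 1.3e-08), and by the same 2.01 without Day 113 replicate 2. The log2 ratio of CAV3 to CAV1 counts was -5.45, -5.93, -6.33 and -4.82 at Day 30, -4.70, -3.93 and -4.77 at Day 60, and -5.15, -4.07, -4.30 and -4.95 at Day 113. The mean was higher by 1.17 at Day 60 than at Day 30 (exact permutation p 0.0571, adjusted 0.229) and by 1.01 at Day 113 (p 0.0857, adjusted 0.257), so neither passed. The latter was 0.83 without Day 113 replicate 2 (adjusted 0.29).

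BIN1 (chromosome 2, 127048023 to 127107154, minus strand) was lowest at Day 60. Its values were 13.3, 22.5, 15.6 and 10.3 CPM at Day 30, 4.95, 7.26 and 6.88 CPM at Day 60, and 10.5, 7.20, 11.7 and 8.95 CPM at Day 113. All Day 60 wells were below all Day 30 wells, and the Day 113 wells overlapped both. BIN1 fell by 1.28 ± 0.26 on the log2 scale to Day 60 (edgeR adjusted p 0.0047). From Day 60 to Day 113 the change was 0.60 ± 0.25 (adjusted p 0.10), or 0.71 without Day 113 replicate 2 (adjusted p 0.058). Against Day 30, Day 113 was lower by a log2 change of -0.68 ± 0.23 (adjusted p 0.030), but this call was lost without Day 30 replicate 2, its highest well (-0.43, adjusted p 0.16). It was also lost without Day 30 replicate 3 (adjusted p 0.059), Day 113 replicate 2 (-0.57, adjusted p 0.079) or Day 113 replicate 4 (adjusted p 0.067). At Day 30 the fibroblast and epithelial marker sums were highest in replicates 2 and 3 and lowest in replicate 4, as BIN1 was, and both sums were lower on average at Day 60. Within Day 60 the order of BIN1 differed from that of either sum. At Day 113, replicates 1 and 3 were highest in both BIN1 and the fibroblast sum, as for SGCD, though the full order of the wells differed. The epithelial sum went otherwise there, since it was highest (1961 CPM) in Day 113 replicate 2, where BIN1 was lowest. The part of other cells in the BIN1 change was not tested.

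**Figure D4:**
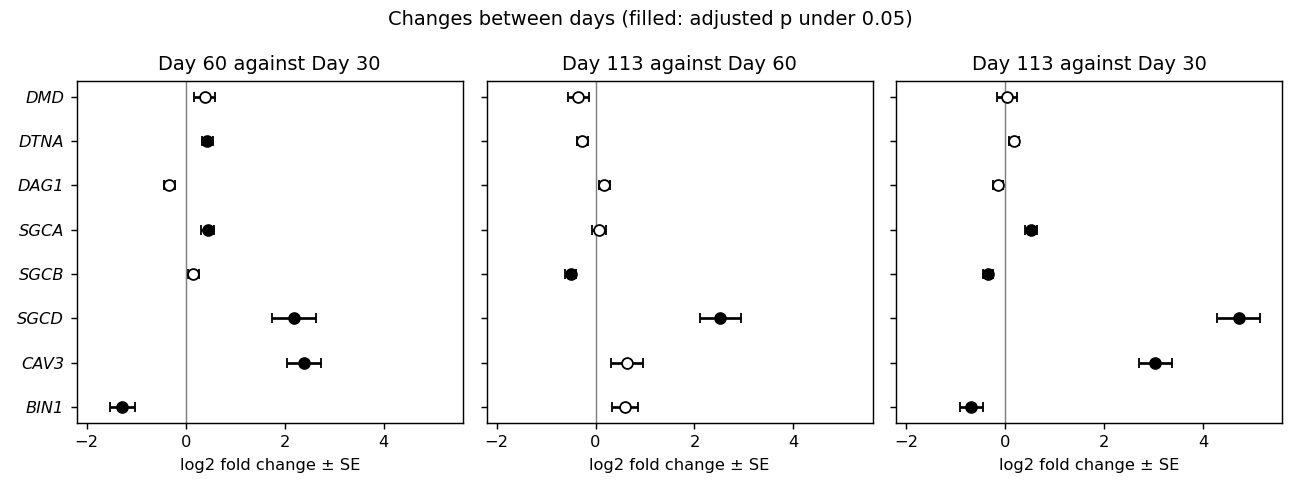
Log2 fold change with its SE (horizontal axis) for each of the 8 genes in the 3 pairs of days. Filled points passed an edgeR adjusted p of 0.05. SGCD is filled in all 3 panels, and SGCB in the 2 that involve Day 113.

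The intervals before and after Day 60 were compared directly, as the later log2 change minus the earlier one, without allowing for their unequal length. This difference passed for 3 of the 8 genes, against 9.34% of all genes (4.97% above 0 and 4.38% below). It was -0.71 ± 0.19 for DTNA (edgeR adjusted p 0.032), -0.65 ± 0.20 for SGCB (0.047) and 1.88 ± 0.47 for BIN1 (0.020). With Day 113 replicate 2 left out these were -0.69, -0.60 and 1.99. By mean level, DTNA and SGCB were highest and BIN1 lowest at Day 60. CAV3, with most of its rise before Day 60, had a difference of -1.77 ± 0.56 (adjusted p 0.061), which passed without Day 113 replicate 2 (-1.97, adjusted p 0.037). For SGCD the difference was 0.34 ± 0.74 (adjusted p 0.84), or 0.53 without that library. Without Day 113 replicate 2 the difference passed for 5 of the 8 genes, with CAV3 and DAG1 (0.56, adjusted p 0.049) added, and without Day 60 replicate 1 or Day 60 replicate 3 it passed for 0. The share of all genes with such a difference in these fits is not given here.

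Per transcript length, the order of the genes at Day 30 was DAG1 (58.0 ± 1.69 CPM per kb, SD, n = 4), SGCB (36.1 ± 2.76), DMD (27.0 ± 4.26), SGCA (26.9 ± 2.48), DTNA (18.4 ± 2.57), BIN1 (5.73 ± 1.94), CAV3 (0.781 ± 0.333) and SGCD (0.0751 ± 0.0526). Of neighbours in that order, only DMD and SGCA overlapped between wells. At Day 113 the level per kb of SGCA (38.6 ± 8.00) was above that of SGCB (28.4 ± 2.64) in every well. Within every well that of CAV3 (6.41 ± 2.25) was also above that of BIN1 (3.56 ± 0.726), though their ranges over the wells overlapped. DAG1 (52.3 ± 5.98 CPM per kb) remained first in the order and SGCD (2.00 ± 0.752) last. The means without Day 113 replicate 2 were 34.7 for SGCA, 29.5 for SGCB, 5.57 for CAV3, 3.86 for BIN1, 54.3 for DAG1 and 2.29 CPM per kb for SGCD. The transcript used for the length may not be the one expressed, which touches DMD and DTNA most, with 20 and 28 annotated coding transcripts.

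The genes whose log2 CPM followed each member most closely over the 11 libraries were taken among about 10355 genes with a mean of at least 10 CPM, as a description of libraries that share days and depth. CAV3 was most like TNNI3 (r = 0.98), CRYAB (0.98) and MYL2 (0.98), which encode the adult cardiac troponin I, a small heat shock protein of muscle and the ventricular regulatory light chain. SGCD was most like PARP14 (0.99), EFEMP1 (0.99), which encodes a matrix glycoprotein, and FAM111A (0.98). Among the genes most like BIN1 were ERRFI1 (0.96), which encodes an inhibitor of the EGF receptor, and ENDOD1 (0.96). SGCA was nearest to DMPK (0.96), the kinase gene of myotonic dystrophy. SGCB was nearest to MALT1 (0.97) and DTNA to CFL2 (0.93), the muscle cofilin. With Day 113 replicate 2 left out, r was 0.95 for SGCA with DMPK, 0.96 for SGCB with MALT1 and DTNA with CFL2, and 0.96 to 0.99 for the others named.

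Of 13 other genes of the dystrophin complex listed, 9 were in the table, and 2 rose and 1 (UTRN) fell between Day 30 and Day 113. That is 33.3% of them, beside 34.5% of all genes over this span (17.3% upward and 17.2% downward), a share near the background. Sarcospan (SSPN), which sits with the sarcoglycans in the membrane, rose from 31.5 to 58.6 and 71.4 CPM on average (log2 change 1.18 ± 0.13 over the whole span, edgeR adjusted p 6.2e-06), and SGCE is described above. Of 18 enzymes that glycosylate dystroglycan, 7 rose and 2 fell over the same span, with a median log2 change of 0.23, which is 50% called against 34.5%. Those 9 calls became 5 if Day 30 replicate 1 was left out, 4 for Day 30 replicate 3 and 6 for any one of Day 113 replicates 2 and 4 and Day 30 replicate 4. POMGNT2, which extends the core sugar, rose by 0.91 ± 0.11 on the log2 scale (adjusted p 1.4e-05). B4GAT1, which primes the laminin-binding chain, fell by 0.28 ± 0.10 (adjusted p 0.033), a call lost without any one of Day 30 replicates 1, 3 and 4 or Day 113 replicate 4.

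Outside the cell, 8 genes were listed for the matrix ligands of dystroglycan, with beta and gamma chains of laminin among them. Of these 8 genes, 4 fell between Day 30 and Day 113 and none rose, against 34.5% of all genes changed (17.2% downward). LAMA1, the laminin alpha chain of early basement membranes, went from 97.8 to 15.8 and 3.56 CPM on average, a log2 change of -4.77 ± 0.15 (edgeR adjusted p 6.3e-12). AGRN, which encodes agrin, fell by 1.15 ± 0.14 (adjusted p 1e-05). LAMA2, the laminin chain of adult muscle, had a log2 change of -0.15 ± 0.13 and was not called. LAMB1 fell by 1.48 ± 0.21 to Day 60 (adjusted p 4.1e-04) and then rose by 1.05 ± 0.21 to Day 113 (adjusted p 0.002). The summed epithelial and fibroblast markers were also lower at Day 60 than at Day 30 on average, and their part in the laminin values was not tested.

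On the cytoplasmic side, 5 of 13 costamere genes rose and 1 fell over the whole span, with a median log2 change of 0.07 (0.12 without Day 113 replicate 2), and 46.2% of them were called against 34.5% of all genes. Desmin (DES), the muscle intermediate filament, rose from 12.0 to 32.6 and 44.5 CPM (1.90 ± 0.14, edgeR adjusted p 8e-08), and SYNM, which co-assembles with desmin, by 0.97 ± 0.11 (adjusted p 6.5e-06). FLNC, the muscle filamin, which binds sarcoglycans, fell by 0.57 ± 0.12 (adjusted p 0.0019). Of the 9 caveola genes, 7 rose and none fell, against 34.5% of all genes changed (17.3% upward), with a median of 0.85, the highest of the 7 lists. CAVIN2 had the largest rise among them (4.03 ± 0.36, adjusted p 5.6e-07). The summed endothelial markers, cells rich in caveolae, were 188 to 762 CPM at Day 113 against 54.1 to 78.4 at Day 30, and their part in the caveola values was not tested.

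Among 18 T-tubule and dyad genes, 5 rose and 5 fell between Day 30 and Day 113, with a median of 0.08 (0.13 without Day 113 replicate 2), which is 55.6% called against 34.5% of all genes. CASQ2, the calcium buffer of the sarcoplasmic reticulum, rose by 1.84 ± 0.21 (edgeR adjusted p 8.6e-06). FKBP1B, which binds the ryanodine receptor, fell by 1.30 ± 0.26 (adjusted p 0.0011), and TMEM38A, a channel of the reticulum, by 1.00 ± 0.18 (adjusted p 5.6e-04). JPH2, which ties the reticulum to the T-tubule, and RYR2, the release channel, had log2 changes of 0.13 ± 0.12 and 0.02 ± 0.16 and were not called. Of 9 membrane repair genes in the table, 2 rose (ANXA2 and ANXA6) and 2 fell (CAPN3 and MYOF) over the same span, against 34.5% of all genes changed. ANXA2 missed the threshold with Day 113 replicate 2 left out (adjusted p 0.056), and with Day 30 replicate 1 or 4 left out. CAPN3, the muscle calpain, fell by 1.89 ± 0.19 (adjusted p 1.5e-06), and DYSF, which encodes dysferlin, fell by 0.68 ± 0.16 to Day 60 (adjusted p 0.01), a call lost without Day 60 replicate 3 (adjusted p 0.072). Of these lists, the changes from Day 30 to Day 113 without Day 113 replicate 2 were 1.21 for SSPN, 0.89 for POMGNT2, -0.32 for B4GAT1, -4.74 for LAMA1, -1.21 for AGRN and -0.05 for LAMA2. They were 1.77 for DES, 1.01 for SYNM, -0.53 for FLNC, 4.10 for CAVIN2, 2.00 for CASQ2, -1.45 for FKBP1B, -1.13 for TMEM38A and -1.74 for CAPN3. Each of these that was called remained called in its direction, while JPH2 (0.08) and RYR2 (0.19) again were not called. The LAMB1 rise after Day 60 was also called (adjusted p 0.0021).

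**Figure D5:**
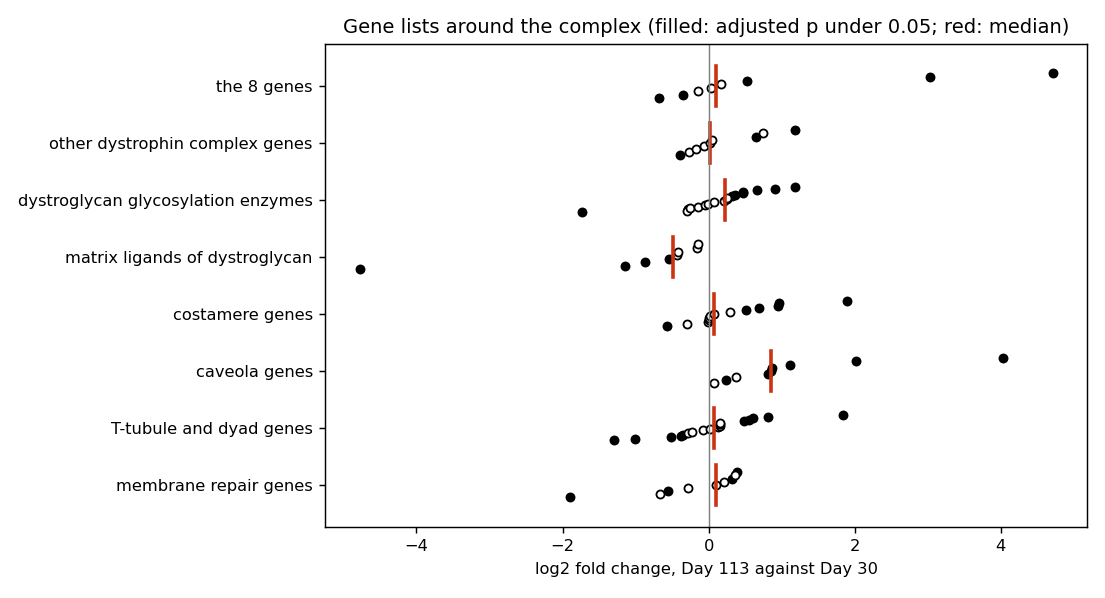
Log2 fold change from Day 30 to Day 113 (horizontal axis) for each gene of the 8 described and of 7 lists around the complex, with 1 point per gene. Filled points passed an edgeR adjusted p of 0.05 and red lines give medians; the caveola list lies furthest to the right (0.85) and the matrix ligands furthest to the left (-0.49).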

How the data were processed

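The table that the authors deposited holds raw read counts, whole numbers, for 19990 genes and 11 libraries. The submitters' processing notes name hg38, STAR 2.5.3a and featureCounts 2.0.3. Whether counting used strand is not given in the sources used here, and DTNA and SGCA each overlap an antisense gene outside the table. The authors also deposited TPM values, for which the gene lengths are not given in the sources used here, and these were not used, since count over TPM implied gene lengths that varied 9.21- to 200-fold between libraries for the 8 genes. Counts were tested with edgeR 4.0.16 in R 4.3.3 (glmQLFit and glmQLFTest, TMM, day as the only factor, one fit of all libraries, checked on simulated data). The filterByExpr minimum count of 10 removed no gene. Adjusted p-values are Benjamini-Hochberg over all genes, from this test unless another tool is named. Ratios used counts plus 0.5. Alternatives were other scalings and filters, DESeq2 1.42.0, limma-voom (limma 3.58.1), robust dispersion, a stricter threshold, only 2 days, a replicate block and each well left out. Named list genes come from the 2 highest and 2 lowest called changes per list and pair of days with a mean of at least 5 CPM in the higher day. A few of the genes this rule takes are left out of the text. LAMA2, JPH2 and RYR2 were named after their values were seen. The 8 genes and the lists were chosen with earlier results of these data known. Same-numbered wells of Day 30 and Day 113 deviated together (r 0.14 to 0.22 in the 4 pairs, across genes), which the labels do not explain, and the block changed no call for the 8 genes there. Promoters of 7 of the 8 genes matched in RefSeq, and coordinates are RefSeq GRCh38.p14.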

Additional observations from a re-analysis of the deposited data

Results flagged for a closer look

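For 3 of the 8 genes the change before Day 60 and the change after it differed by a test of the difference itself (edgeR, later minus earlier log2 change). DTNA had -0.71 (adjusted p 0.032). That difference was lost without any one of Day 30 replicates 1, 2 and 3 or Day 60 replicates 1 and 3, at adjusted p 0.053 to 0.18. SGCB had -0.65 (adjusted p 0.047), which was lost in 7 of the 11 fits that leave out a single well, at 0.06 to 0.22. BIN1 had 1.88 (adjusted p 0.020), which was lost without Day 60 replicate 1 (0.13) or Day 60 replicate 3 (0.072). No well lay far enough from the others of its day to pass Dixon's test for an outlier in any of the sets of 4 wells tested.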

How the results depend on the processing

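At an adjusted p under 0.01, 3 of the 8 genes were called before Day 60, 3 from Day 30 to Day 113 and 0 for the difference between the intervals (edgeR). With the replicate number as a block, 4 were called from Day 60 to Day 113 (main 2), DTNA (-0.32, adjusted p 0.034) and BIN1 (0.73, adjusted p 0.046) being added, while before Day 60 SGCA was lost (adjusted p 0.054) and DAG1 added (0.043), and the CAV3 difference between intervals passed (0.049). Same-numbered wells correlated at 0.072 to 0.17 between Day 60 and Day 30 and at -0.013 to 0.33 between Day 113 and Day 60, and 4 of 6 wells in each had their highest r with their own number. Between Day 113 and Day 30, 8 of 8 wells did, and over all 3 pairs of days 8 of the 10 same-numbered pairs passed 0.1. With the block, 2474 of all genes were called before Day 60 (main 2060) and 4954 after it (main 4790). For the difference between the intervals it was 2366 of all genes (main 1868). The labels do not say what same-numbered wells share, and this was not tested. Leaving out each well, 3 to 6 genes were called before Day 60, 2 after it, 4 to 5 over the whole span and 0 to 5 for the difference between the intervals. The share of all genes at the stricter threshold is not given here. Of the fits without 1 well, that share is given above only for Day 113 replicate 2.
The change of DMD from Day 30 to Day 113 turned with limma-voom (-0.018), the block (-0.012) and single wells left out (-0.13 to 0.23), and that of RYR2 with upper-quartile factors (-0.0030), limma-voom (-0.012), the block (-0.0023) and single wells left out (-0.071 to 0.19). Leaving out single wells also turned the SGCA change after Day 60 (-0.078 to 0.14). It turned the interval differences of SGCD (-0.046 to 0.60), UTRN (-0.23 to 0.068) and SGCE (-0.19 to 0.094, and 0.028 with the block), and the ratio differences after Day 60 of CAV3 to CAV1 (-0.34 to 0.11) and DTNA to DTNB (-0.14 to 0.12). None of these was called, and the cause was not tested. Other scalings, filters and DESeq2 turned no member's direction. At Day 30, SGCD rests on 7 to 36 counts a well, which limits its fold.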

Other observations

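Among the start sites that RefSeq lists for the 8 genes, the DMD and DTNA windows (7 each, 300 bases with 50 after the start) had GC contents of 34.3% to 44.7% and 32.3% to 49%, below the median of 58.7% for all such windows. The SGCB window had 74.7% GC and the 2 DAG1 windows 71.7% and 74.7%, and none of these 3 held an E-box, as did 31.3% of all windows. A CArG box, the motif bound by serum response factor, was found in 1 of the 7 DMD windows, against 1.29% of all windows. The counts do not tell which start was used.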
